A study of Mus musculus with 12 samples.

Results

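Gpr37l1, Ntsr2, Fgfr3, Slco1c1, Nkain4 and C1ql1 are 6 mouse genes grouped here as astroglial, with products at the cell surface or, for C1ql1, secreted. They were picked by name from a table of 54532 genes, several of them because their levels were lower in astrocytes of an amyloid mouse or in astrocytes given amyloid-beta, and all 6 were found, 1 row each. Total RNA was sequenced from cultured astrocytes of adult C57BL/6 mouse cortex and hippocampus, in 12 libraries that make up 3 experiments with 2 libraries per group. The first compared astrocytes labelled Ogt cKO, a conditional knockout of the enzyme that attaches O-GlcNAc sugar to proteins, with its control, both from 4-month-old mice and both carrying the same genotype label, Glast-CreERT2::Ogtfloxp/Y. The second compared astrocytes of the 5X APP mouse, an amyloid model of Alzheimer's disease (AD model), with wild-type astrocytes, from mice aged 6 months by the sample labels (5 months by the series description). The third compared wild-type astrocytes of 2-month-old mice kept with 20 µM amyloid-beta 1-42 (Aβ) for 72 hours, or 73 hours in the label of 1 library, with untreated wild-type astrocytes of the same age. Glast-CreERT2 drives recombination in astroglia on tamoxifen, for which the labels give no schedule, and they describe no sorting of cells. Nor do they say whether libraries of 1 group are from different animals or dishes, so each p-value measures only the spread between these libraries.

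Astrocytes read their surroundings through surface receptors and exchange hormones and ions with blood and neurons through transporters and pumps. Gpr37l1 is a G protein-coupled receptor of astrocytes for which prosaposin has been proposed as a ligand, Ntsr2 is the low-affinity receptor of the peptide neurotensin, and Fgfr3 is a receptor tyrosine kinase for fibroblast growth factors that also marks astroglial progenitors. Slco1c1 carries thyroid hormone across brain endothelium and into astrocytes, Nkain4 belongs to a small family of membrane proteins that bind the sodium pump, and C1ql1 is a secreted C1q-like protein that in mouse cerebellum organizes synapses through the receptor Adgrb3.

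Among the 6 genes, Gpr37l1 and Slco1c1 had the most alike profiles over the 12 libraries, and the 250 bases before their RefSeq start sites are shown for that reason, 5′ to 3′ on the gene's own strand (GRCm38.p6). Capitals mark E-box (CANNTG) and CCAAT box (CCAAT or ATTGG) matches.
Gpr37l1 promoter, chr1:135167682-135167931, minus strand: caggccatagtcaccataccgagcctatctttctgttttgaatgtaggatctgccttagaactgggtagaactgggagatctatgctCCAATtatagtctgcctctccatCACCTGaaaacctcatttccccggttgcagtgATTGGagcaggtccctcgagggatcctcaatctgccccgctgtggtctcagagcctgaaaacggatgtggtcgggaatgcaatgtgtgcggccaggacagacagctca
Slco1c1 promoter, chr6:141524104-141524353, plus strand: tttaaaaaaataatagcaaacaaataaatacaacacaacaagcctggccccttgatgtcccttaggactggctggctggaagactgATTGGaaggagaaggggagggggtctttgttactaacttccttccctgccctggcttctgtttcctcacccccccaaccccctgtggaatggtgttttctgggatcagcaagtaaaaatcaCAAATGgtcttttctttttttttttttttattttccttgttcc
The Gpr37l1 window held 52.0% G and C, with 1 E-box and 2 CCAAT boxes. The Slco1c1 window held 42.8% G and C, with 1 E-box and 1 CCAAT box. Such matches are common: of 32851 mouse promoter windows of this length, 66.2% held an E-box and 33.9% a CCAAT box, searched on both strands. Neither window held an NFI motif (TTGGC, 41.5% of windows, and able to overlap a CCAAT box), a SOX (AACAAT, 9.42%), STAT (TTCNNNGAA, 7.02%) or AP-1 (TGANTCA, 6.75%) match. RefSeq windows were also at hand for Fgfr3 and Ntsr2, so 4 of the 6 genes were matched. The Ntsr2 window held 4 E-boxes, 1 NFI motif and 1 STAT match.

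Between 16418852 and 18705309 reads were assigned to genes per library. Levels are in FPKM, which divides reads by the length of the gene and the size of the library. Ogt itself was at 11.04 and 12.03 FPKM in the Ogt cKO libraries and at 20.8 and 24.7 FPKM in their controls. Summed over 40 astrocyte markers, the level was 917 to 928 FPKM in Ogt cKO libraries against 3284 to 3701 in controls, 1474 to 1632 in the AD model against 2777 to 3284 in controls, and 1017 to 1498 with Aβ against 1096 to 1110 in controls. Gjb6 and Slc7a10 were at 0 in both libraries of the AD model and of the Aβ control, and Slc7a10 also with Aβ. In RNA of a whole culture, fewer cells of a type and less RNA per cell cannot be told apart. Microglia and macrophage markers, 19 genes, summed to 3234 to 4325 FPKM in Ogt cKO libraries, against 7801 to 9804 in controls, to 3945 to 6542 in the AD model against 1288 to 1835 in controls, and to 5333 to 7095 with Aβ against 2514 to 4160 in controls. Markers of other cell types were thus not mere traces: these sums exceeded those of the astrocyte markers in every group but the AD control. Sums over unlike lists do not give shares of cells.

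Taken over all 3 experiments, the 6 genes did not act as a block. The stated reason for picking genes does not name the Ogt cKO, but the choice was made with earlier results of these data known. The test there is thus not shown to be independent of the choice, and its spread came from all 12 libraries. In the Ogt cKO experiment 5 of the 6 passed (limma on log2(FPKM + 1), Benjamini-Hochberg adjusted over 14014 genes, threshold 0.05). Gpr37l1, Slco1c1 and Fgfr3 were lower and Nkain4 and C1ql1 higher. Fgfr3 missed the threshold with no filter on low values (limma adjusted p = 0.0687), and its further limits are given below. The count of 5 stands beside 42.3% of all genes tested that were called there, 19.8% lower and 22.6% higher (53.3% of the calls higher, against 35.3% after rescaling to total reads). The libraries of all 6 genes were apart from their controls there, 4 below (as for 42.2% of all genes) and 2 above (41.6%). For 5 of the 6, all but Fgfr3, both AD model libraries lay below both controls, as for 23% of all genes tested. With Aβ the same was true of 4 of the 6, all but Fgfr3 and Ntsr2, and of 40.2% of all genes. The amyloid values helped to choose the genes, so they are given as a description with no test. All 6 genes passed the filter for testing (at least 1 FPKM in at least 2 libraries), Ntsr2 only through its AD control libraries.

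**Figure D1:**
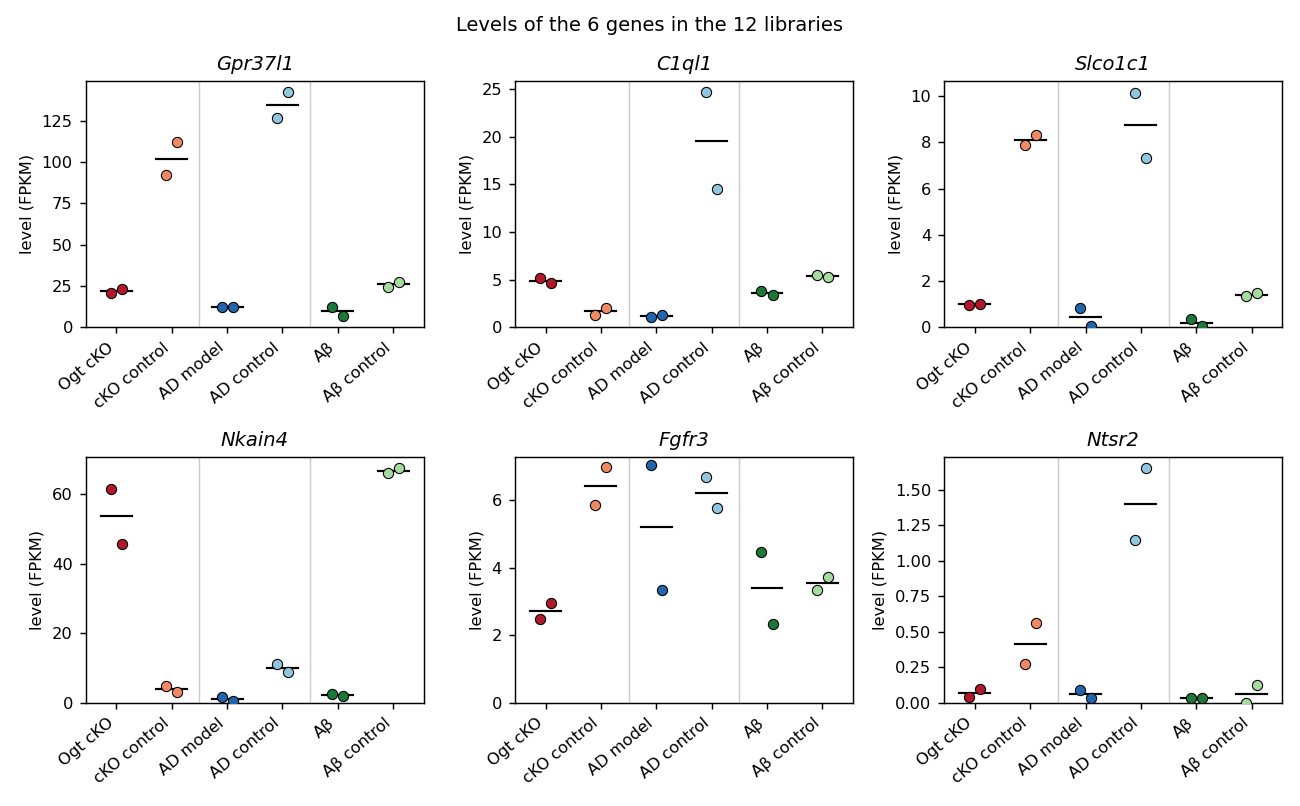
Level (FPKM, linear axis) of the 6 genes in each of the 12 libraries, 1 point per library, with a bar at the group mean. Gpr37l1 and Slco1c1 are high in the controls of the Ogt cKO and AD experiments only, whereas Nkain4 is high in the Ogt cKO and the Aβ control.

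Gpr37l1 was the most abundant of the 6 in every group but the Ogt cKO and the Aβ control, where Nkain4 was. Its gene lies on chromosome 1, 135160234 to 135167681, minus strand (ENSMUSG00000026424, mm10), and is 2269 bases long in the deposited table. It measured 20.6 and 23.0 FPKM in Ogt cKO libraries, against 92.4 and 112.0 FPKM in their controls. Both knockout libraries lay far below both controls, and the libraries of each group were close together. The ratio of means was 4.69-fold lower in the Ogt cKO (21.8 ± 1.7 against 102.2 ± 13.9 FPKM, SD, n = 2 each). On the log2(FPKM + 1) scale the change was -2.18 (SE 0.219, limma adjusted p = 0.00068), so Gpr37l1 fell. The astrocyte markers moved alongside: 22 of 35 tested fell in the Ogt cKO and 2 rose, with a median log2 change of -1.70 against 0.00 over all genes, and 17 to 20 fell without any 1 library. Their part in the fall of Gpr37l1 was not tested.

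Astrocytes of the AD model had Gpr37l1 at 12.2 and 12.4 FPKM, against 127.0 and 142.4 FPKM in wild-type controls. The control level placed it above 97.9% of genes tested, and the AD level above 70.1%. Means were 10.9-fold lower in the AD model (12.3 ± 0.1 against 134.7 ± 10.9 FPKM). Astrocyte markers stood beside it here too: 17 of 35 fell and 1 rose, 12 to 19 fell without any 1 library, and 2 fell where the 4 libraries were fitted alone. With Aβ it measured 12.2 and 6.96 FPKM, against 24.2 and 27.5 FPKM in untreated controls, 2.70-fold lower on average. Of the astrocyte markers 6 rose and 4 fell with Aβ (median log2 change 0.03), but 1 rose without Aβ replicate 1 or Aβ control replicate 1 and 2 without Aβ control replicate 2, and 1 or 2 fell without Aβ replicate 2 or either control. The Aβ control was 5.20-fold below the AD control, and the AD and Aβ groups, at the bottom of the order, overlapped. From high to low the group means ran AD control, Ogt cKO control, Aβ control, Ogt cKO, AD model and Aβ, and no other neighbours in that order overlapped.

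The paralog Gpr37, a receptor of oligodendrocytes in brain, went the other way in both amyloid comparisons. It averaged 3.31 FPKM in the AD model against 0.519 in controls (log2 change 1.51, limma adjusted p = 0.00313) and 2.03 FPKM with Aβ against 0.203 in controls (1.28, adjusted p = 0.00358). Both calls held without any 1 library, and these comparisons called 17.1% of all genes in the AD model (9.8% higher, 7.27% lower) and 35.9% with Aβ (20.8% higher, 15.1% lower). In the Ogt cKO it averaged 0.213 FPKM, against 0.297 in controls, and was not called. Oligodendrocyte markers rose in both amyloid comparisons, 10 of 12 in the AD model and 11 of 12 with Aβ. In the Ogt cKO 6 of the 12 fell and 1 rose (median log2 change -1.25), whereas Gpr37 changed by -0.10 there. The part of these cells in the Gpr37 values was not tested. The AD count was 6 without AD control replicate 1 and 4 where the 4 libraries were fitted alone, and the Aβ count was 8 to 11 without any 1 library. Psap, which encodes prosaposin, rose to a mean of 1535 FPKM in the AD model against 710 in controls (1.10, adjusted p = 0.0182) and to 1889 FPKM with Aβ against 692 in controls (1.44, adjusted p = 0.00282). It fell to 616 FPKM in the Ogt cKO, against 1410 in controls (-1.20, adjusted p = 0.0077). In the AD model Psap was not called where the 4 libraries were fitted alone. The AD call was lost without AD model replicate 2 or AD control replicate 1 (adjusted p up to 0.078), and the Ogt cKO call without Ogt cKO replicate 2 or control replicate 2 (up to 0.0553). Microglia and macrophage markers moved alongside Psap: of 19 tested, 10 fell in the Ogt cKO, 12 rose in the AD model, and 9 rose and 2 fell with Aβ. In the AD model 4 rose without AD model replicate 2 or AD control replicate 1, and with Aβ 4 rose without Aβ replicate 1 and 3 without Aβ control replicate 1. Where the 4 AD libraries were fitted alone 3 rose, and the part of these cells in the Psap values was not tested.

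Ntsr2 was close to the limit of detection except in the AD control. The gene lies on chromosome 12, 16653382 to 16660227, plus strand (ENSMUSG00000020591). It measured 0.0408 and 0.0999 FPKM in Ogt cKO libraries (2 and 5 reads), against 0.272 and 0.559 FPKM in controls (16 and 36 reads). The groups did not overlap, and the ratio of summed reads scaled by library size was 0.167 (95% interval 0.0641 to 0.370, counting error only). The log2(FPKM + 1) change of -0.40 (SE 0.167, limma adjusted p = 0.0821) missed the threshold. Libraries of the AD model had Ntsr2 at 0.0907 and 0.0352 FPKM (5 and 2 reads), against 1.15 and 1.65 FPKM in controls (59 and 101 reads), a read ratio of 0.0441 (0.0175 to 0.0930). Both AD libraries were thus far under both controls. With Aβ it had 2 reads in each library, against 0 and 7 reads in controls, a ratio of 0.563 (0.121 to 2.21), and the libraries of the groups overlapped. Only the AD control and then the Ogt cKO control stood apart in the order of groups, and the other 4 groups overlapped with their neighbours.

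Nts and Ntsr1 gave little signal. Nts, the gene of the peptide, did not exceed 0.485 FPKM in any library, and the high-affinity receptor Ntsr1 did not exceed 0.0974 FPKM, so neither was tested. Of the sortilin family, sorting receptors among which Sort1 binds neurotensin, 4 genes were tested. In the Ogt cKO, 3 of them fell: Sort1 averaged 8.17 FPKM against 33.1 in controls (log2 change -1.89, limma adjusted p = 0.00258), Sorl1 1.34 against 16.4 (-2.89, adjusted p = 0.000667) and Sorcs1 0.265 against 2.65 (-1.53, adjusted p = 0.00315). These calls held without any 1 library. Sorcs2 and Sorl1 fell in the AD model, and each of these calls was lost in at least 2 of the 4 fits without 1 library.

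Fgfr3 varied least of the 6, with group means 2.35-fold apart at most. The gene lies on chromosome 5, 33721674 to 33737068, plus strand (ENSMUSG00000054252). It measured 2.50 and 2.97 FPKM in Ogt cKO libraries, against 5.86 and 6.98 FPKM in controls. The groups did not overlap, and the mean was 2.35-fold lower in the Ogt cKO. The log2 change of -0.99 (SE 0.299) passed the threshold (limma adjusted p = 0.0276), but it missed it without any 1 of the 4 libraries, that is without either Ogt cKO replicate or either control replicate (adjusted p 0.0704 to 0.137). Fgfr3 in the AD model measured 7.05 and 3.35 FPKM, against 6.69 and 5.76 FPKM in controls. With Aβ it measured 4.45 and 2.35 FPKM, against 3.35 and 3.73 FPKM in controls. In both amyloid comparisons the treated or mutant libraries lay on either side of the controls, with replicates 2.10-fold and 1.90-fold apart, so Fgfr3 was not below its controls in every amyloid library. All neighbours overlapped in the order of its 6 group means.

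The other FGF receptors were measured alongside. Fgfr1, the most abundant of the signalling receptors here, averaged 23.8 FPKM with Aβ against 38.3 in controls and fell (log2 change -0.66, limma adjusted p = 0.00395). It was not called in the Ogt cKO (44.3 against 39.3 FPKM) or the AD model (27.4 against 34.4). Fgfr2 fell in the Ogt cKO to 2.78 FPKM, against 8.08 in controls (-1.26, adjusted p = 0.00378). Its call with Aβ (1.81 against 3.31 FPKM, adjusted p = 0.0489) was lost in 3 of 4 fits without 1 library. Fgfrl1, an FGF receptor without a kinase domain, fell in the Ogt cKO to 38.3 FPKM, against 119 in controls (-1.61, adjusted p = 0.0023). It averaged 62.2 FPKM in the AD model against 121 in controls (-0.93, adjusted p = 0.0288), a call lost without AD model replicate 1 or AD control replicate 2. The Ogt cKO calls of Fgfr2 and Fgfrl1 and the Aβ call of Fgfr1 held without any 1 library.

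FGF ligands and targets moved both ways. Of 6 ligands tested, Fgf7 rose in the Ogt cKO (10.7 against 1.82 FPKM in controls, limma adjusted p = 0.00235), whereas Fgf5 (0.126 against 4.07, adjusted p = 0.00331) and Fgf18 (1.44 against 5.50, adjusted p = 0.00515) fell. Fgf18 also fell in the AD model (0.912 against 4.202 FPKM, adjusted p = 0.00768). Of 18 signalling and target genes, 5 rose and 4 fell in the Ogt cKO, with a median log2 change of -0.11. All 4 falls were lost when any 1 of the libraries was left out, and 1 to 3 genes then rose. Flrt2, an adhesion protein that binds FGF receptors, rose in the Ogt cKO to 20.1 FPKM, against 2.48 in controls (2.61, adjusted p = 0.000451). Spry1, an inhibitor that FGF signalling induces, fell in the AD model to 2.00 FPKM, against 10.3 in controls (-1.88, adjusted p = 0.00579). Neither Fgf18 nor Spry1 was called in the AD model where its 4 libraries were fitted alone.

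**Figure D2:**
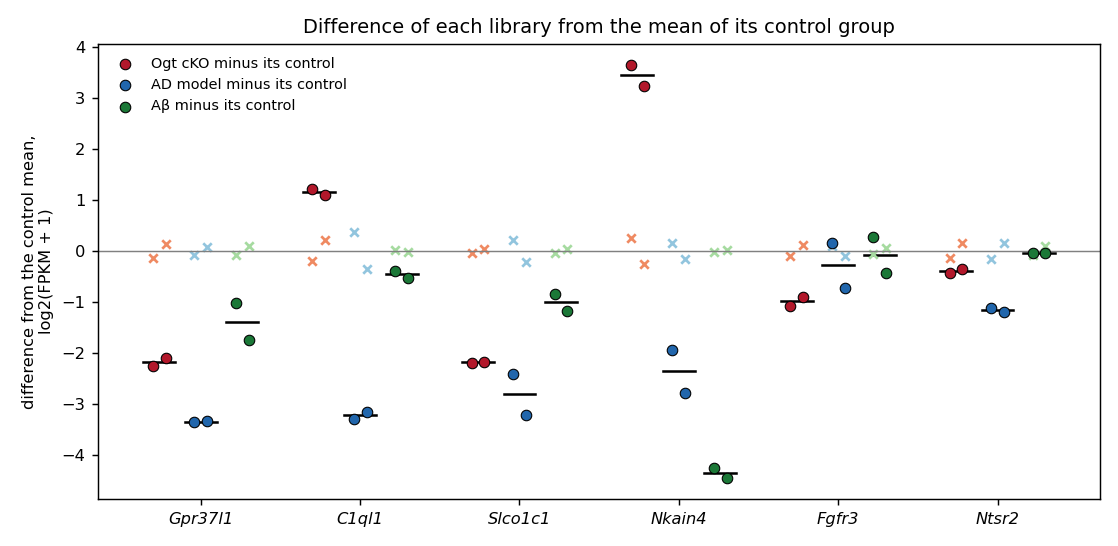
Difference of each library from the mean of its own control group, log2(FPKM + 1), for the 6 genes. Filled points are Ogt cKO (red), AD model (blue) and Aβ (green) libraries with a bar at their mean, and pale crosses of the same hue are the control libraries. Nkain4 and C1ql1 lie above the line in the Ogt cKO and below it in the AD model and with Aβ.

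Slco1c1 followed Gpr37l1 at a lower level. The gene lies on chromosome 6, 141524368 to 141570177, plus strand (ENSMUSG00000030235). It measured 0.981 and 1.01 FPKM in Ogt cKO libraries, against 7.87 and 8.33 FPKM in controls. The libraries of each group were nearly equal, and the mean was 8.14-fold lower in the Ogt cKO. The log2(FPKM + 1) change was -2.19 (SE 0.253, limma adjusted p = 0.00107), so Slco1c1 fell. The fall of astrocyte markers given for Gpr37l1 stands beside this one too, and its part was not tested.

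The AD model libraries were unlike each other in Slco1c1, at 0.818 and 0.0424 FPKM (75 and 4 reads), against 10.2 and 7.34 FPKM in controls (869 and 748 reads). Both were below both controls, and the ratio of summed reads was 0.0492 (95% interval 0.0388 to 0.0617, counting error only, which is narrower than the 19.3-fold gap between the AD libraries). With Aβ it measured 0.342 and 0.0648 FPKM (30 and 6 reads), against 1.35 and 1.47 FPKM in controls (118 and 132 reads), 6.92-fold lower on average. The Aβ libraries also differed from each other, 5.27-fold. As with Gpr37l1, the Aβ control lay well under the other controls, which overlapped.

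Brain endothelium also makes Slco1c1, and the summed level of endothelial markers was higher in the Ogt cKO and with Aβ, whereas its range overlapped that of the controls in the AD model. Their 18 genes summed to 406 to 438 FPKM in Ogt cKO libraries against 120 to 164 in controls, to 368 to 948 in the AD model against 233 to 432 in controls, and to 1695 to 2236 with Aβ against 424 to 548 in controls. Of 17 tested, 11 rose and 1 fell in the Ogt cKO, where without 1 library 1 rose (Ogt cKO replicate 1 or control replicate 2), 3 (Ogt cKO replicate 2) or 7 (control replicate 1). With Aβ 13 rose, and 7 to 9 without any 1 library. For the AD model 2 rose and 1 fell, with a median log2 change of 0.84, which was -0.05 without AD model replicate 1, and 9 rose without AD model replicate 2. Slc38a5 was at 0 in both libraries of every group, and the part of these cells in the Slco1c1 values was not tested.

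Other organic anion transporters moved in both directions. Of 11 paralogs, 5 were tested, and in the Ogt cKO 3 rose and 2 fell (1 of each without Ogt cKO replicate 1, and 1 fall without any other library). Slco4a1, which also carries thyroid hormone, rose in all 3 comparisons: it averaged 7.92 FPKM in the Ogt cKO against 0.411 in controls (log2 change 2.67, limma adjusted p = 0.00035), 11.9 FPKM in the AD model against 0.308 (3.29, adjusted p = 2.41e-05) and 14.8 FPKM with Aβ against 3.53 (1.80, adjusted p = 0.000428). These calls held without any 1 library. Slco1a4, a transporter of brain endothelium, fell in the Ogt cKO to 0.333 FPKM, against 6.94 in controls (-2.58, adjusted p = 0.00473). Slco1a5 also fell there, to 2.75 FPKM against 6.60 in controls (-1.02, adjusted p = 0.0358), a call lost without any 1 of the 4 libraries. Slco3a1 rose with Aβ to 26.3 FPKM, against 8.91 in controls (1.45, adjusted p = 0.00135). Slco1a4 and Slco3a1 in these comparisons also held without any 1 library.

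Thyroid hormone handling differed between comparisons in its counts. In the Ogt cKO 6 of 12 genes fell, with a median log2 change of -0.71, and 2 fell without control replicate 2. The receptor gene Thra fell there to 7.57 FPKM, against 25.1 in controls (log2 change -1.60, limma adjusted p = 0.0024). Of the 12, 3 rose and 1 fell in the AD model, and 4 rose with Aβ. The number that rose was 1 without AD control replicate 1, and 1 without Aβ replicate 1 or without Aβ control replicate 1. Slc16a10, a carrier of thyroid hormone and aromatic amino acids, rose in the AD model to 4.10 FPKM, against 0.525 in controls (1.70, adjusted p = 0.00473). Klf9, a target of the hormone, rose with Aβ to 6.96 FPKM, against 3.07 in controls (0.96, adjusted p = 0.00316). Both held without any 1 library, but Slc16a10 was not called where the 4 AD libraries were fitted alone.

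Nkain4 had the widest range of the 6, with 55.5-fold between its highest and lowest group. The gene lies on chromosome 2, 180934772 to 180954699, minus strand (ENSMUSG00000027574). It measured 61.4 and 45.7 FPKM in Ogt cKO libraries, against 4.93 and 3.17 FPKM in controls. The mean was 13.2-fold higher in the Ogt cKO, and the log2 change of 3.44 (SE 0.284, limma adjusted p = 0.00035) was the largest of the 6, so Nkain4 rose. Nkain4 in the AD model measured 1.83 and 0.576 FPKM (40 and 13 reads), against 11.1 and 8.75 FPKM in controls, 8.26-fold lower on average. With Aβ it measured 2.53 and 2.08 FPKM, against 66.0 and 67.4 FPKM in controls, 29.0-fold lower. No neighbouring groups overlapped in the order of the means, which ran Aβ control, Ogt cKO, AD control, Ogt cKO control, Aβ and AD model. The control groups alone spanned 16.5-fold, and their age, genotype and experiment cannot be told apart.

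The summed level of pericyte and smooth muscle markers changed in the same direction as Nkain4 in each comparison. Their 13 genes summed to 4020 to 4065 FPKM in Ogt cKO libraries against 520 to 1034 in controls, to 229 to 776 in the AD model against 1745 to 3829 in controls, and to 440 to 511 with Aβ against 3591 to 4092 in controls. Most of these sums was Acta2, smooth muscle actin, at a mean of 3594 FPKM in the Ogt cKO against 645 in controls. Its call there was lost without either Ogt cKO replicate or without control replicate 2 (log2 change 2.04 to 3.09 without 1 library). In the AD model the Acta2 call was lost without AD model replicate 2 or AD control replicate 1 (-3.65 to -1.73). Of the 10 tested, 4 rose and 2 fell in the Ogt cKO, and 1 rose without either Ogt cKO replicate or without control replicate 2. The 2 that fell in the Ogt cKO were Vtn and Anpep, opposite to Nkain4. The AD model and Aβ each had 6 that fell and 1 that rose, Anpep in both. For the AD model 4 fell without AD model replicate 2 or AD control replicate 1, and 2 where its 4 libraries were fitted alone. Higd1b was at 0 in both libraries of the Ogt cKO control, the AD model and Aβ, and Abcc9 in those of the Aβ control. Fibroblast and meningeal markers had sums in the same directions: 1266 to 1279 FPKM in Ogt cKO libraries against 830 to 958.5 in controls, 367 to 773 in the AD model against 1051 to 1972, and 294 to 493.5 with Aβ against 876 to 1108. Of 11 tested, 2 rose and 2 fell in the Ogt cKO, 7 fell in the AD model (0 where its 4 libraries were fitted alone), and 7 fell and 1 rose with Aβ. The part of any of these cells in the Nkain4 values was not tested.

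Among its relatives, Nkain1 shared the change in the Ogt cKO. It measured 32.8 and 32.7 FPKM in Ogt cKO libraries, against 4.09 and 4.28 FPKM in controls, and rose (log2 change 2.70, limma adjusted p = 0.00405, held without any 1 library). It was not called in the AD model (means of 18.0 against 15.0 FPKM, with replicates at 23.6 and 6.28 FPKM in the control) or with Aβ (25.6 against 30.6). Nkain2 measured 0.856 to 2.19 FPKM over the 12 libraries, and Nkain3 did not pass the filter. Of the sodium pump's own 10 subunits and regulators, 3 fell and 1 rose in the Ogt cKO, 2 fell in the AD model, and 2 fell and 2 rose with Aβ. All 4 Aβ calls were lost without Aβ replicate 2 or Aβ control replicate 2, 1 of each direction was left without Aβ replicate 1, and 1 fall without Aβ control replicate 1. Also lost was the Ogt cKO rise, of Fxyd5, without either Ogt cKO replicate or control replicate 2. Atp1b2, the astrocyte beta subunit, fell in the Ogt cKO to 12.2 FPKM, against 131 in controls (-3.32, adjusted p = 0.00105), and in the AD model to 19.4 FPKM, against 150 in controls (-2.86, adjusted p = 0.00125). With Aβ it averaged 9.20 against 12.8 FPKM and was not called. Fxyd6, a pump regulator, fell in the AD model to 2.18 FPKM, against 12.1 in controls (-2.04, adjusted p = 0.000324). Atp1b2 and Fxyd6 kept these calls without any 1 library. Of the pump's 10 subunits and regulators, 1 fell in the AD model where its 4 libraries were fitted alone.

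C1ql1 rose in the Ogt cKO and was lowest in the AD model. The gene lies on chromosome 11, 102939264 to 102946688, minus strand (ENSMUSG00000045532). It measured 5.14 and 4.66 FPKM in Ogt cKO libraries (119 and 110 reads), against 1.30 and 2.04 FPKM in controls (36 and 62 reads). The mean was 2.93-fold higher, and the log2 change was 1.16 (SE 0.227, limma adjusted p = 0.00581). C1ql1 in the AD model measured 1.04 and 1.23 FPKM (27 and 33 reads), against 24.7 and 14.5 FPKM in controls (600 and 420 reads). Both AD libraries were far below controls that themselves differed 1.70-fold, and the means were 17.3-fold apart. With Aβ it measured 3.85 and 3.42 FPKM, against 5.46 and 5.28 FPKM in controls, 1.48-fold lower. No neighbours overlapped in the order of means, which ran AD control, Aβ control, Ogt cKO, Aβ, Ogt cKO control and AD model.

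C1ql1 is also made by oligodendrocyte precursors, and their markers moved with it in the AD model. The 11 marker genes summed to 66.4 to 72.5 FPKM in AD libraries, against 152 to 263 in controls. Of 10 tested, 8 fell (6 to 8 without any 1 library, 2 where the 4 libraries were fitted alone). Cacng4 was at 0.190 and 0.261 FPKM in AD libraries, against 14.4 and 3.46 FPKM in controls, where the same control library was the higher one as for C1ql1. In the Ogt cKO the sum was 48.6 to 48.7 FPKM, against 104 to 186 in controls, the opposite direction to C1ql1. Of the 10 tested there, 4 fell and 1 rose, with a median log2 change of -0.09. Sox10 weighed heavily in that sum, with a mean of 5.19 FPKM against 75.4 in controls. With Aβ the sum was 58.7 to 59.4 FPKM, against 42.6 to 56.4 in controls, where 2 rose and 1 fell. Neu4 was at 0 in both libraries of every group but the AD control. The part of these cells in the C1ql1 values was not tested.

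The relatives of C1ql1 had a profile of their own. C1ql3 measured 2.13 and 2.66 FPKM in Ogt cKO libraries, against 10.5 and 15.6 FPKM in controls, and fell (log2 change -2.03, limma adjusted p = 0.00149), where C1ql1 rose. It fell in the AD model too, with means of 1.782 against 6.998 FPKM (-1.58, adjusted p = 0.00406). With Aβ it averaged 1.95 against 1.77 FPKM and was not called. Both calls held without any 1 library. The AD call of C1ql3 was lost where the 4 AD libraries were fitted alone. C1ql2, C1ql4 and the receptor gene Adgrb3 did not pass the filter. Reads of C1ql1, Nkain4 and Fgfr3 could be shared with opposite-strand genes that overlap them, since the labels do not say whether counting used strand, but those overlapping genes did not exceed 0.0976, 0.286 and 0.0814 FPKM.

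**Figure D3:**
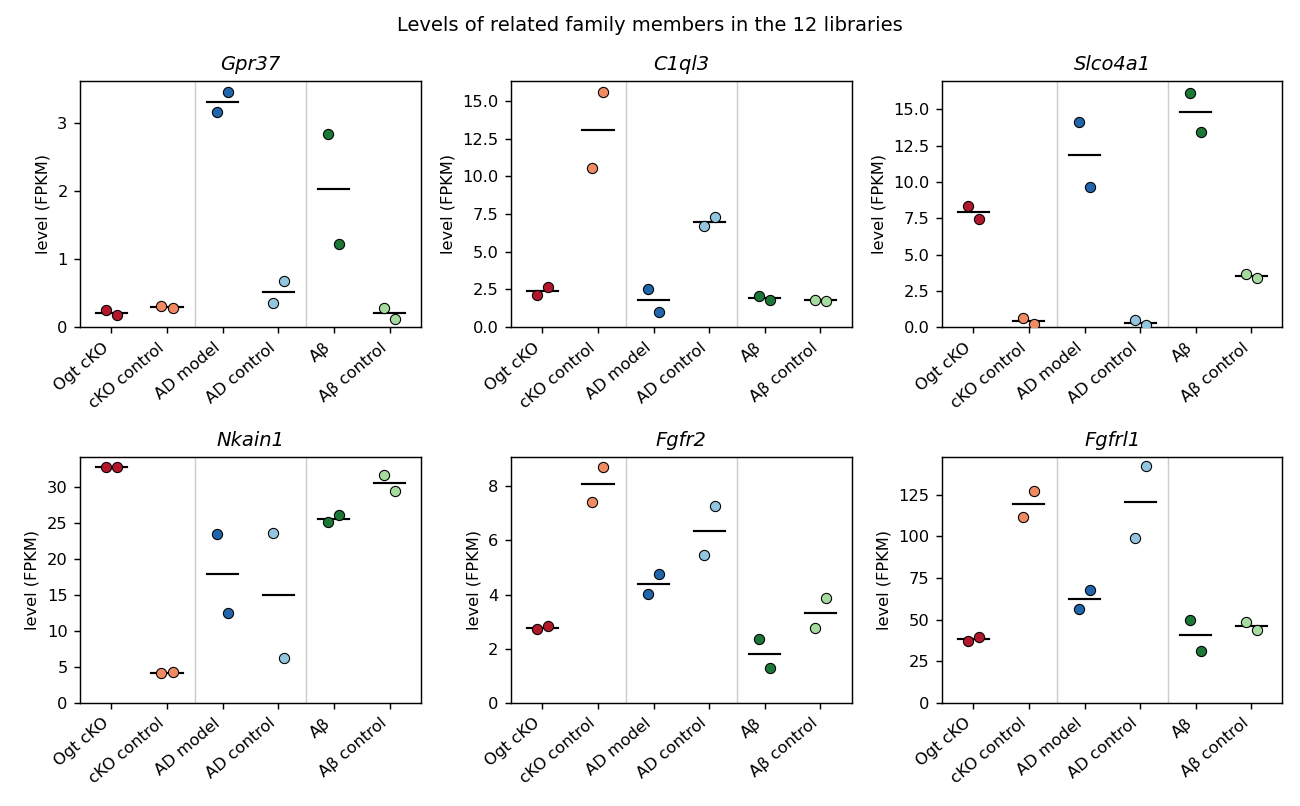
Level (FPKM, linear axis) of 6 relatives of the genes in each of the 12 libraries, with a bar at the group mean. Gpr37 is high in the AD model and with Aβ, Slco4a1 in all 3 groups set against a control, and Nkain1 is low in both Ogt cKO control libraries.

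Set against each other by group, the 6 genes placed the Ogt cKO beside the Aβ control. The root mean square difference of log2(FPKM + 1) means over the 6 genes was 0.23 between these 2 groups, and no single gene differed by more than 0.31. It was 0.58 between the AD model and Aβ. All other pairs of groups were at least 1.33 apart, the value between the Ogt cKO control and the AD control. The AD model and its control were 2.46 apart, a distance that the choice of genes bears on, since both amyloid comparisons helped to pick them. Over all 14014 genes tested the same pairs were also the closest, at 0.34 for the Ogt cKO and the Aβ control and 0.42 for the AD model and Aβ, whereas the AD model and its control were 0.75 apart, and Aβ and the Ogt cKO control the farthest, at 0.97. The Ogt cKO and the Aβ control differ in age, genotype and experiment, and the values are a description with no test.

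**Figure D4:**
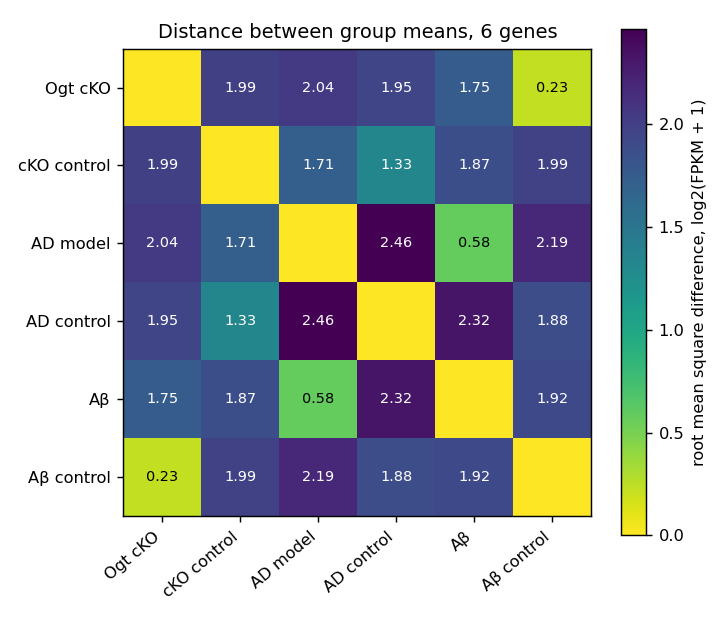
Root mean square difference between group means of the 6 genes, log2(FPKM + 1), for each pair of groups (yellow close, dark far, value in each cell). The Ogt cKO and the Aβ control are 0.23 apart, and the AD model and Aβ 0.58.

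Profiles over single libraries split the 6 genes. They include the AD and Aβ libraries, whose values helped to choose the genes, so the distances are a description with no test. Each gene's log2(FPKM + 1) was centred on its mean over the 12 libraries and the root mean square difference to other genes taken, among 8725 genes that reached a group mean of 5 FPKM. Slco1c1 was the nearest gene to Gpr37l1 (0.32), followed by Sez6 (0.34) and Itgbl1 (0.53), and the nearest to Slco1c1 was Sez6 (0.29), where the median over all candidates was 1.46 for Gpr37l1 and 1.28 for Slco1c1. Sez6 measured 3.37 and 3.06 FPKM in Ogt cKO libraries, against 17.9 and 21.4 FPKM in controls. Astrocyte markers made up 8 of the 50 genes nearest to Gpr37l1, among them Aldoc, Slc4a4 and Atp1b2, and 7 of the 50 nearest to Slco1c1, of 30 such markers among the candidates. For C1ql1, Nkain4 and Fgfr3 the number was 0 of 50, and for Ntsr2 it was 1, Ndrg2.

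The nearest genes to Nkain4 were Elobl (0.55), Spon2 (0.71) and Acta2 (0.76), against a median of 1.92. Acta2 and Nkain4 both had their 2 highest group means in the Ogt cKO and the Aβ control. C1ql1 was nearest to Scg2 (0.46), Cacng4 (0.49) and Rtn4rl2 (0.60), against a median of 1.10. Fgfr3 was nearest to the transporter gene Slco1a5 (0.14), Lrp4 (0.20) and Phlpp1 (0.21), and Ntsr2 to Cpne8 (0.16), Plcl1 (0.17) and Fam124a (0.20). But both genes had a small range on this scale, and the median candidate was also near, at 0.59 and 0.57. For Ntsr2 the added 1 FPKM compressed its low levels, since its group means in FPKM were up to 37.9-fold apart. Between the 6 genes themselves the differences ran from 0.32 (Gpr37l1 and Slco1c1) to 2.24 (Gpr37l1 and Nkain4). By this measure, which the choice of genes bears on, Gpr37l1 and Slco1c1 lay near astrocyte markers. C1ql1, Nkain4 and Fgfr3 had no astrocyte marker among their nearest 50 genes.

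**Figure D5:**
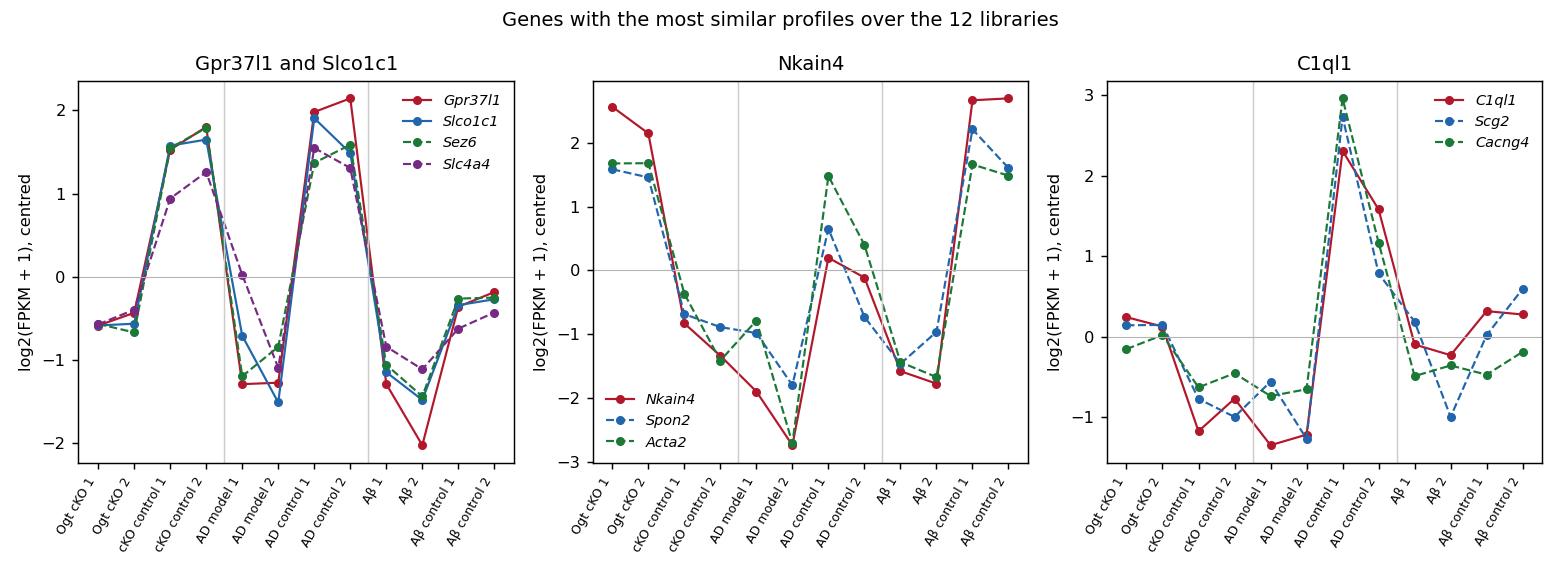
Centred log2(FPKM + 1) in each of the 12 libraries for Gpr37l1 and Slco1c1 with Sez6 and Slc4a4 (left), Nkain4 with Spon2 and Acta2 (middle) and C1ql1 with Scg2 and Cacng4 (right). Lines only join the points of a gene, and libraries have no order within a group.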

How the data were processed

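Total RNA of cultured astrocytes was sequenced in 12 libraries, 2 per group. The authors deposited FPKM per gene with gene lengths, on mm10 per the submitters' processing notes. Aligner, counter, annotation and strandedness: not given in the sources used here. FPKM times gene length were whole multiples of 1 step per library (100% of values within 0.1 read), from which reads per gene were recovered. These totals were 0.886 to 1.10 times the library size behind the FPKM. Intervals of read ratios (95%) and read limits cover counting error only.

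Groups came from the sample descriptions. The 14014 genes that reached 1 FPKM in 2 or more libraries were analysed on the log2(FPKM + 1) scale by limma 3.58.1 (R 4.3.3), 1 mean per group over all 12 libraries, a trend in the prior (6 residual and 2.92 prior degrees of freedom), two-sided, Benjamini-Hochberg adjusted at 0.05. The added 1 makes log2 changes of low genes smaller than their ratios. The code was tested on simulated data. Plots used matplotlib 3.10.9 in Python 3.11.15.

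The 6 genes and the 21 lists were chosen with earlier results of these data known. Named besides the 6 genes are their paralogs and partners, the 3 genes with the nearest profiles, and up to 3 genes per list and comparison by adjusted p, with Ogt and markers at 0 added after their values were seen. Defining astrocyte markers and other cells were covered by 9 of the lists. The labels do not say that replicate numbers pair samples, so the numbers were not taken as pairs. Same-numbered replicates deviated with correlations of 0.033 (Ogt cKO), 0.551 (AD) and -0.169 (Aβ) over 2 pairs each, the highest in the AD experiment. Alternatives were a pseudocount of 0.1, no filter, a filter of 5 FPKM, rescaling to total reads, voom on recovered reads, a replicate block, the 4 libraries of a comparison alone and each library left out. Counts of list genes without each library and a crossed pairing were added after seeing the data. Promoters are RefSeq's, GRCm38.p6, and were read only as 250 bases before the start.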

Additional observations from a re-analysis of the deposited data

How the results depend on the processing

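In the Ogt cKO comparison no gene of the 6 changed direction under any alternative, and Gpr37l1, Slco1c1, Nkain4 and C1ql1 passed the threshold under all that could test them. Fgfr3 missed it with no filter on low values (-0.99, adjusted p = 0.0687) and without each library in turn (-1.10 to -0.88). Ntsr2 missed it throughout, also with voom (-2.43, adjusted p = 0.0569), and could not be tested with a filter of 5 FPKM or with the 4 libraries alone. Leaving out 1 library gave -2.31 to -2.04 for Gpr37l1, 0.95 to 1.36 for C1ql1, -2.23 to -2.15 for Slco1c1, 3.19 to 3.69 for Nkain4 and -0.54 to -0.25 for Ntsr2; the lone library of a group is then assumed to vary like the other groups. The replicate block changed no call of these genes (Fgfr3 adjusted p = 0.016, Ntsr2 0.112); the genes called were then 6789 for the Ogt cKO, 3058 for the AD model and 6098 for Aβ, against 5934, 2392 and 5025 without it, and a crossed pairing gave 6708 for Aβ. The AD model had 364 called with its 4 libraries alone. Leaving out 1 library gave 1829 (without control replicate 2) to 3165 (without control replicate 1) called for the Ogt cKO, with 2208 and 2700 without its replicates 1 and 2. For Aβ it gave 2653 (without control replicate 1) to 4018, with 2742 and 3243 without Aβ replicates 1 and 2, and for the AD model 2134 to 2403. The cause was not tested, beyond the smaller number of libraries. Rescaling to total reads moved the median of all genes in the Ogt cKO to -0.19, against 0.00, and the higher genes to 35.3% of calls, against 53.3%, while C1ql1 (0.98) and Nkain4 (3.22) stayed above their controls. Of the AD and Aβ values of the 6 genes, 18 moved by more than the spread between replicates, all with a pseudocount of 0.1 or voom (Slco1c1 in the AD model to -4.59 and -5.46, Ntsr2 with Aβ to 0.34), and 115 did not. Depth limits Ntsr2 and, in the AD model and with Aβ, Slco1c1, which rest on few reads there.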
